A study of Homo sapiens with 4 samples.

Results

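The genes described here are 10 transcriptional outputs and feedback regulators of the MAPK (ERK) pathway: DUSP4, DUSP5, DUSP6, SPRY2, SPRY4, SPRED1, SPRED2, ETV4, ETV5 and PHLDA1. They were chosen by name for their known place in the pathway, and all 10 were found among the 17755 genes of the deposited expression table. RNA was sequenced from the established human melanoma cell lines SK-MEL-28 and A375, both of which carry mutant BRAF. Cells of each line received either a control small interfering RNA (siNC) or one against the long non-coding RNA LINC00622 (siLINC00622), spent 6 h without serum and were then kept with serum for 24 h. Each of the 4 conditions is 1 library, so there were no replicates within a condition.

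In the MAPK pathway, growth factor receptors switch on RAS, which drives the kinases RAF, MEK and ERK in turn, and mutant BRAF keeps the cascade on without an upstream signal. ERK then induces genes that pass the signal on, such as the ETS-family factors ETV4 and ETV5, and genes that damp it, such as the DUSP phosphatases and the SPRY and SPRED proteins. The RNA of these genes is widely used as a readout of ERK activity in melanoma cells.

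Libraries held 31269923 to 36384819 counts in all. The targeted RNA was read 309 times in SK-MEL-28 with siNC and 135 times with siLINC00622, a log2 ratio of -1.21 with a 95% interval of -1.53 to -0.93. A375 had 135 and 86 counts of it, which is a log2 ratio of -0.84 (-1.27 to -0.46). Over both lines, in the edgeR fit described below, the effect on LINC00622 was -1.05 on the log2 scale (SE 0.197, adjusted p = 0.110), lower in both lines but short of the threshold of 0.05. Here and below, a ratio within a line compares 1 library with 1 library after TMM scaling, and its interval (exact Clopper-Pearson) covers counting error only, without the variation between cultures. SOX10, the transcription factor of the melanocyte lineage, had between 118 and 153 FPKM in the 4 libraries. The pigment enzyme TYR had 104 and 118 FPKM in SK-MEL-28 and 0.21 and 0.23 FPKM in A375, so the A375 libraries lacked this melanocyte marker almost entirely. With siNC, PMEL had 940 FPKM in SK-MEL-28 and 2.24 FPKM in A375, and MITF had 80.1 and 5.29 FPKM. Of 9 melanoma markers, the edgeR fit called 8 lower and 1 higher in A375, beside 34% and 34.8% of all genes. Of the markers of other cell types that could be analysed here, KRT14 reached 7.01 FPKM, LUM 9.78 FPKM and LYZ 2.32 FPKM at most, while KRT10 had 19.0 to 26.3 FPKM in every library. These are bulk libraries, in which fewer cells of a type and less RNA per cell cannot be told apart.

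The study lists a pair of siRNAs against LINC00622, and which of them the sequenced cells received was not given in the sources used here. Their target sites are shown because the capital letters, which pair with positions 2 to 8 of the guide strand, were also searched for in the transcripts of the 10 genes.
siLINC00622_1: ccctaaagaaaGTGAGAAa
siLINC00622_2: ggcaacctctaATTGACTt
The sites lie at bases 555 to 573 and 815 to 833 of the LINC00622 transcript of 1570 bases, annotated on the minus strand at chr1:119597702-119599271 (GENCODE 29, GRCh38).

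All 10 genes were expressed in every library. FPKM, the read count scaled to length and sequencing depth, was used to set levels of different genes side by side. The lengths implied by the deposited values ran from 2535 bases (DUSP5) to 7750 bases (SPRED1). Whether they match the transcripts expressed in these cells was not tested. In SK-MEL-28 with siNC the lowest level was 3.44 FPKM, for DUSP5, the median was 23.3 FPKM and the highest was 74.5 FPKM, for DUSP4. Over all genes with at least 10 counts in that library, the median was 4.18 FPKM. In A375 with siNC the levels lay closer together, from 14.3 FPKM (SPRED2) to 66.5 FPKM (SPRY2), with a median of 24.7 FPKM. The summed level of the 10 genes was 277 and 255 FPKM in SK-MEL-28 with siNC and siLINC00622, and 335 and 370 FPKM in A375. Many neighbours in the order were close, such as SPRY2 and PHLDA1 in A375 with siNC, which differed 1.01-fold (66.5 against 65.9 FPKM), and without replicates their order is a description of these libraries.

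**Figure D1:**
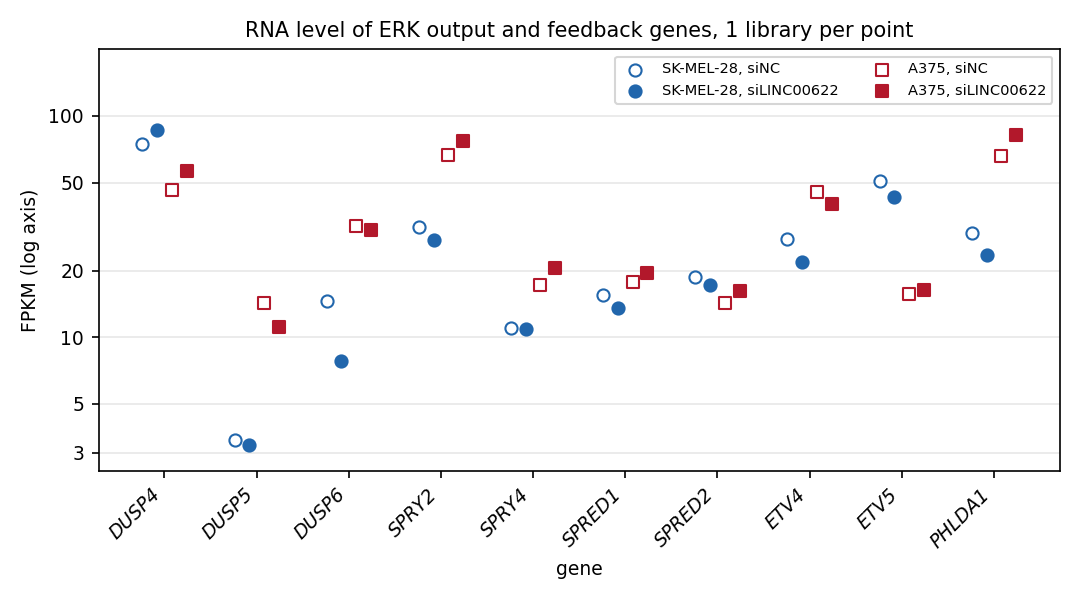
RNA level of each of the 10 genes in FPKM on a log axis, with 1 point per library (circles SK-MEL-28, squares A375, open siNC, filled siLINC00622). DUSP6 is the gene with the widest gap between the SK-MEL-28 points, from 14.5 to 7.84 FPKM, while its A375 points lie at 31.6 and 30.6 FPKM.

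After knockdown of LINC00622, the 10 genes did not move as a block. In SK-MEL-28 the ratio was below 0 for 9 of 10 genes and DUSP4 was the exception, whereas in A375 it was above 0 for 7 of 10. Over all genes 50.5% had a ratio below 0 in SK-MEL-28 and 50.7% one above 0 in A375. The sign for SPRY4 in SK-MEL-28 (-0.01) turned with DESeq2 size factors (0.003). SK-MEL-28 had a median log2 ratio of -0.18 over the 10 genes, beside -0.004 over all genes, and A375 one of 0.16, beside 0.0043. Only DUSP6 passed the 1.5-fold limit, in SK-MEL-28. The SK-MEL-28 counts were thus 0 of 10 higher and 1 of 10 lower, where 4.56% of all genes were higher and 6.49% lower past this limit. In A375 it was 0 of 10 in both directions, against 4.52% of all genes higher and 4.34% lower. These counts are near the shares over all genes. The counting interval lay above 0 for 1 and below 0 for 7 of the 10 genes in SK-MEL-28, against 22.9% and 24% of all genes, and above 0 for 6 and below for 2 in A375, against 23.8% and 22%. The intervals are narrow for genes with many reads, as most of the 10 are. For 4 of the 10 (SPRY2, SPRED1, SPRED2 and PHLDA1) the intervals lay on opposite sides of 0 in the lines, as they did for 6.4% of 14721 genes.

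**Figure D2:**
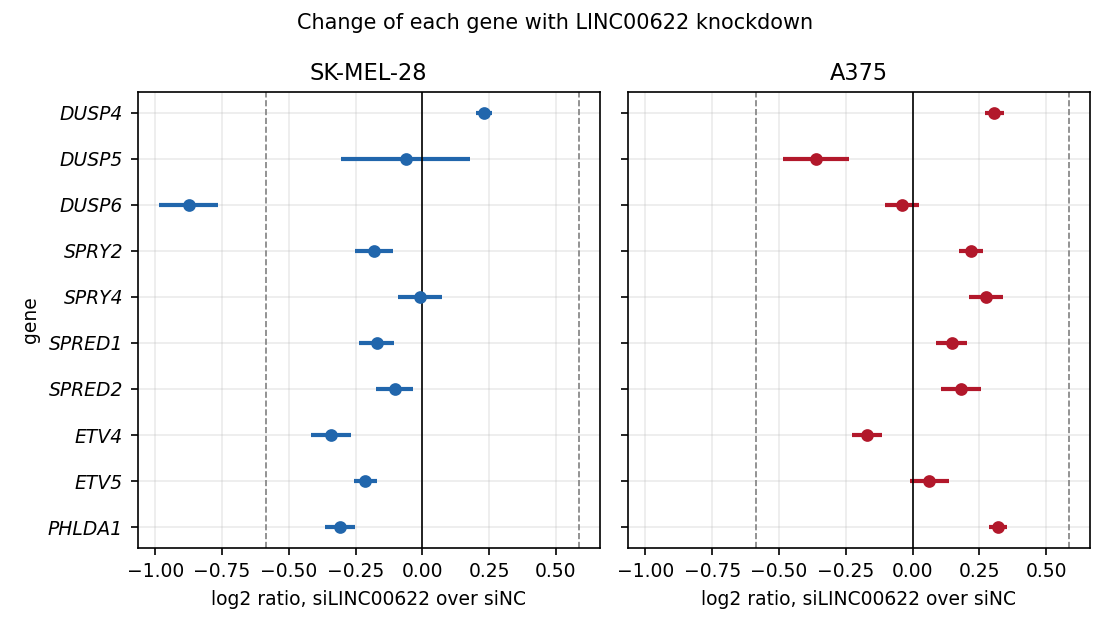
Log2 ratio of siLINC00622 over siNC for each gene in each line, with bars for the 95% counting interval and dashed lines at 1.5-fold. In SK-MEL-28, 7 intervals lie below 0 and 1 above it, and in A375, 2 lie below and 6 above.

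Among the phosphatases, DUSP6 removes the activating phosphates from ERK in the cytoplasm. It had 1857 and 1034 counts in SK-MEL-28 with siNC and siLINC00622, and 3819 and 4299 counts in A375. This was 1.83-fold lower with knockdown in SK-MEL-28, a log2 ratio of -0.87 (-0.99 to -0.77) that was lower than in all but 2.5% of 15442 genes. In A375 the log2 ratio was -0.04 and its interval, -0.10 to 0.02, held 0. DUSP6 thus stood apart from the other 9 genes in SK-MEL-28, where the next lowest ratio was that of ETV4 (-0.34), but not in A375.

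DUSP4 acts on ERK in the nucleus and was the most abundant of the 10 genes in SK-MEL-28. Its levels were 74.5 and 86.7 FPKM in SK-MEL-28 with siNC and siLINC00622, and 46.1 and 56.6 FPKM in A375. The ratio was above 0 in both lines, at 0.23 (0.20 to 0.26) and 0.31 (0.27 to 0.34). DUSP4 was the sole gene of the 10 to be higher with knockdown in both lines. DUSP5, a nuclear phosphatase specific for ERK, had 289 and 283 counts in SK-MEL-28 and 1137 and 1024 counts in A375. Its ratio was -0.06 (-0.30 to 0.18) in SK-MEL-28, where its low count gave the widest interval of the 10, and -0.36 (-0.48 to -0.24) in A375, the lowest ratio there.

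SPRY2 and SPRY4 block signalling between receptors and RAF, and SPRED1 and SPRED2 bring the RAS-inactivating protein neurofibromin to the membrane. SPRY2 had 31.4 and 27.4 FPKM in SK-MEL-28 with siNC and siLINC00622, and 66.5 and 77.0 FPKM in A375. Its log2 ratios were -0.18 (-0.25 to -0.11) and 0.22 (0.17 to 0.26). The SPRED genes had the same pair of signs, with ratios of -0.17 (-0.24 to -0.10) and 0.15 (0.09 to 0.20) for SPRED1 and of -0.10 (-0.17 to -0.03) and 0.18 (0.11 to 0.26) for SPRED2. SPRY4 had 11.01 and 10.85 FPKM in SK-MEL-28, a ratio of -0.01 (-0.09 to 0.07), and 17.1 and 20.6 FPKM in A375, a ratio of 0.27 (0.21 to 0.34). All 4 genes were thus lower or little changed in the SK-MEL-28 knockdown library and higher in that of A375, by less than 1.5-fold each time.

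ETV4 and ETV5 are ETS-family transcription factors of the PEA3 group and carry ERK signalling to further target genes. ETV4 had 27.9 and 21.8 FPKM in SK-MEL-28 with siNC and siLINC00622, and 45.5 and 40.2 FPKM in A375. It was the one gene whose intervals lay below 0 in both lines, at -0.34 (-0.42 to -0.27) and -0.17 (-0.23 to -0.11). ETV5 had 50.6 and 43.2 FPKM in SK-MEL-28, a ratio of -0.21 (-0.26 to -0.17), and 15.7 and 16.3 FPKM in A375, a ratio of 0.06 (-0.01 to 0.13). The library kit did not mark strand and ETV4 overlaps DHX8 on the opposite strand, so reads from the shared stretch cannot be told apart. DHX8 had 3089 and 2910 counts in SK-MEL-28 and 5294 and 6295 counts in A375. ETV5 shares part of its span with DGKG, which had 579 and 1146 counts in SK-MEL-28 and 657 and 1041 counts in A375.

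PHLDA1, a pleckstrin homology-like domain protein induced by ERK, had knockdown ratios that lay farther apart between the lines than those of any other of the 10 genes but DUSP6. It had 5763 and 4754 counts in SK-MEL-28 with siNC and siLINC00622, and 12187 and 17600 counts in A375. Its log2 ratios were -0.31 (-0.36 to -0.25) and 0.32 (0.29 to 0.35). It was the highest ratio of the 10 genes in A375 and the lowest in SK-MEL-28 after those of DUSP6 and ETV4.

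Both lines together give the treatment its only repeat. In an edgeR quasi-likelihood fit over the 4 libraries with the cell line as a block, which leaves 1 residual degree of freedom, 0 of the 10 genes had an adjusted p below 0.05. Of 16310 genes tested, 0.0858% were called higher and 0.147% lower with siLINC00622. Without adjustment 2 of the 10 had p below 0.05 by edgeR, namely DUSP4 and ETV4, and 2 by DESeq2, namely DUSP4 and DUSP6, while over all genes 14.6% and 7.09% did. DUSP4 had a treatment effect of 0.28 on the log2 scale (SE 0.078, adjusted p = 0.191 by edgeR), higher in both lines. ETV4 had one of -0.24 (SE 0.094, adjusted p = 0.301 by edgeR), lower in both lines. For DUSP6 the fitted effect was -0.43 (SE 0.192, adjusted p = 0.373 by edgeR), the largest of the 10 and with the largest SE, as its ratios in the lines lay far apart. DESeq2 called 0 of the 10 after adjustment.

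The cell lines were then compared with each other. With treatment as the block in the same edgeR fit, 6 were higher in A375, 3 were lower and SPRED1 did not pass the threshold, while over all genes 34.8% were higher and 34% lower. DESeq2 also called 9 of the 10. Calls are thus common over all genes, and the libraries of a line differed in treatment and were not replicate cultures. DUSP5 had the largest difference, 1.74 higher in A375 on the log2 scale (SE 0.129, adjusted p = 4e-05). DUSP6 was higher by 1.37 (SE 0.195, adjusted p = 0.000824), PHLDA1 by 1.31 (SE 0.153, adjusted p = 0.000327) and SPRY2 by 1.12 (SE 0.119, adjusted p = 0.000207). ETV4 and SPRY4 were higher by 0.62 and 0.61.

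Close relatives went opposite ways between the lines. ETV5 was lower in A375, at -1.72 (SE 0.103, adjusted p = 1.6e-05), while ETV4 was higher there. DUSP4 was lower, at -0.83 (SE 0.079, adjusted p = 0.000124), while both other phosphatases were higher. SPRED2 was lower by a smaller amount, at -0.41 (SE 0.106, adjusted p = 0.0130), a call that did not pass with scaling to library totals (-0.23, adjusted p = 0.0905, edgeR). SPRED1, at 0.19 (SE 0.108, adjusted p = 0.161), passed with that scaling (0.36, adjusted p = 0.0247, edgeR) and with upper quartile scaling (0.30, adjusted p = 0.0378, edgeR). Read within each treatment, the difference for DUSP6 was 0.94 between the siNC libraries and 1.80 between the siLINC00622 libraries, and for PHLDA1 it was 0.98 and 1.63. For SPRED1 it was 0.02 and 0.36.

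**Figure D3:**
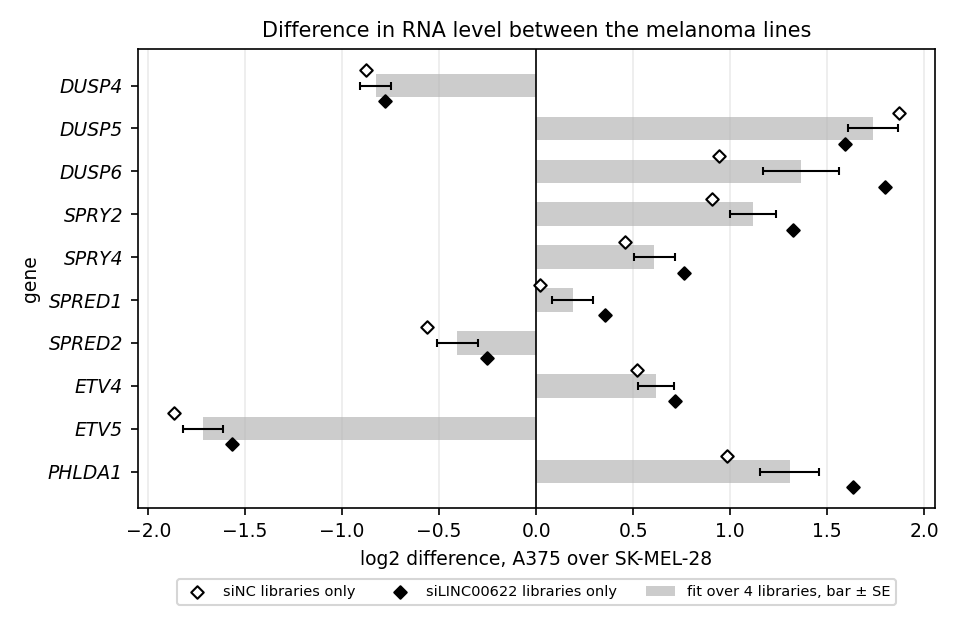
Log2 difference of A375 over SK-MEL-28 for each gene, as bars with SE from the edgeR fit over 4 libraries and as diamonds for the siNC libraries (open) and the siLINC00622 libraries (filled) taken alone. DUSP5, DUSP6, PHLDA1 and SPRY2 lie over 1 above 0, and ETV5 lies at -1.72.

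The letters of the siRNA seed sites were searched for in the longest annotated 3' UTR of each gene (GENCODE 29, GRCh38, plus strand of the transcript). GTGAGAA, from siLINC00622_1, was present in the 3' UTRs of 3 of the 10 genes, with 1 match in DUSP6, 2 in SPRED2 and 1 in PHLDA1, beside 14.5% of 12357 genes. ATTGACT, from siLINC00622_2, was present once in PHLDA1, and in 11.6% of all genes. The matches are shown with the matching letters in capitals, since DUSP6 and PHLDA1 are the genes whose ratios differed most between the lines.
DUSP6, first siRNA: atcctagtGTGAGAAtgctgaat
SPRED2, first siRNA: aatgggatGTGAGAAtgatgaaa
SPRED2, first siRNA: attaacttGTGAGAAtcaggaaa
PHLDA1, first siRNA: attgctctGTGAGAAatttgagg
PHLDA1, second siRNA: ggtggcttATTGACTtgcacggt
The DUSP6 match lies at bases 1684 to 1690 of a 3' UTR of 2022 bases, and the ratios of DUSP6 were -0.87 (SK-MEL-28) and -0.04 (A375) with the same letters present. SPRED2, with 2 matches, had ratios of -0.10 and 0.18. CCND1, described below, had 2 matches to GTGAGAA. A match describes the letters only, and its part in the result was not tested.

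SPRY2 and PHLDA1 had the same sign in each line and between the lines, and DUSP6 did not share it in A375. SPRED1 shared these signs, as did SPRY4, whose ratio in SK-MEL-28 was near 0. The 250 bases before the annotated starts of SPRY2, PHLDA1 and DUSP6 are shown (RefSeq, GRCh38.p14, minus strand). Capitals mark CCGGAA, a part of the ETS site CCGGAAGT, and shorter forms of the site were not searched for. Windows were found for 6 of the 10 genes, and SPRY2 has several, of which the one farthest upstream is given.
SPRY2, chr13:80341127-80341376: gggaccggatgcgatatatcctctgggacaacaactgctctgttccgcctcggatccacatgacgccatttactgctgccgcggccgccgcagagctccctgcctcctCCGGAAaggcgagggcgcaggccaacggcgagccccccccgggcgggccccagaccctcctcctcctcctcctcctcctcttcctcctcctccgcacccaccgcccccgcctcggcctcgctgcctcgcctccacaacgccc
PHLDA1, chr12:76031777-76032026: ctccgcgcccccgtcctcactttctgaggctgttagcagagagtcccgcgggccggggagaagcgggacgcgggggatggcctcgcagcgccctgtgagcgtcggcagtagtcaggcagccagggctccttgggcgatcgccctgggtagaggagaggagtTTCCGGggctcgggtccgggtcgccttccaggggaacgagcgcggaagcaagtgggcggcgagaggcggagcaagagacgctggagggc
DUSP6, chr12:89352502-89352751: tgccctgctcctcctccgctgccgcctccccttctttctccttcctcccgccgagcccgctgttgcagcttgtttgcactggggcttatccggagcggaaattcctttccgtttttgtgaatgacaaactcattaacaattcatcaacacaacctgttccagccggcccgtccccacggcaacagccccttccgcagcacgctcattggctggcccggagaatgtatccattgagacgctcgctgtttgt
CCGGAA on either strand was present in 2 of the 9 windows found for the 10 genes, those of SPRY2 and PHLDA1 given here, and in 14.5% of 35116 windows in the table. The windows of SPRY4 and SPRED1 and the other windows of SPRY2 had no CCGGAA. Any part of these letters in the ratios was not tested. In PHLDA1 the match to CCGGAA lies on the other strand and is printed as its reverse complement, TTCCGG. The longer ETS site CCGGAAGT, which contains CCGGAA, was in 0 of the 9 and in 3.42% of all windows. The AP-1 site TGACTCA and the CRE site TGACGTCA were in 0 of the 9, and in 4.2% and 1.65% of all windows. DUSP4, DUSP5, ETV4 and ETV5 had no entry.

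Of the kinase cascade itself, the scaffold KSR1 was lower past 1.5-fold in SK-MEL-28 (-0.75) and had a ratio of -0.20 in A375. NRAS had ratios of 0.47 and 0.31, and BRAF, the gene mutated in these lines, had -0.02 and 0.10.

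The other ERK-induced genes were spread more widely than the 10. Past 1.5-fold, SK-MEL-28 had 3 of 17 higher and 4 lower, beside 4.56% and 6.49% of all genes, with a list median of -0.26. A375 had 0 higher and 1 lower, beside 4.52% and 4.34% of all genes, with a list median of -0.07. CCND1, which encodes the cell cycle regulator cyclin D1, had 35045 and 16060 counts in SK-MEL-28 and 27575 and 16963 counts in A375. It was lower in both lines, with ratios of -1.16 (-1.18 to -1.13) and -0.91 (-0.94 to -0.88), and a treatment effect of -1.02 (SE 0.092, adjusted p = 0.0440 by edgeR). That call did not pass with library totals (adjusted p = 0.0868). FOS, an immediate early transcription factor, had ratios of 1.38 (1.23 to 1.54) and 0.15 (-0.23 to 0.54), and LIF, a secreted cytokine, had -1.01 and -0.11. CCND1 and FOS thus had ratios of opposite sign in SK-MEL-28.

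**Figure D4:**
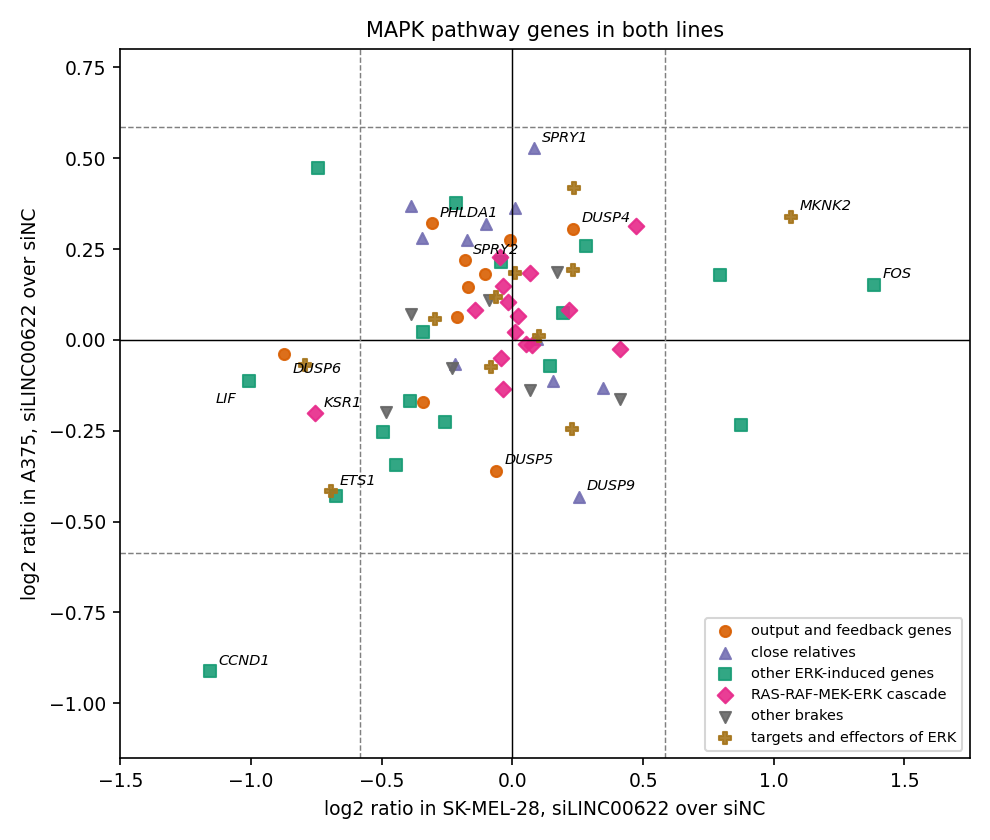
Log2 ratio of siLINC00622 over siNC in SK-MEL-28 (horizontal) and A375 (vertical) for the 10 output and feedback genes and 5 further groups of pathway genes, with 1 point per gene and dashed lines at 1.5-fold. CCND1 is the one gene past the limit in both lines, and DUSP6 lies at the left, near 0 on the A375 axis.

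Of 11 relatives of the 10 genes, 0 passed the 1.5-fold limit in either line, with medians of 0.01 (SK-MEL-28) and 0.28 (A375). Over all genes, SK-MEL-28 had 4.56% higher and 6.49% lower past the limit, while A375 had 4.52% and 4.34%. Lists of 7 or 11 genes are too short to tell 0 from these shares. SPRY1, another Sprouty, had ratios of 0.08 and 0.53, and SPRED3 had -0.39 (-0.90 to 0.10) and 0.37. DUSP9, a cytoplasmic phosphatase of the DUSP6 subgroup, had 0.25 and -0.43. Among other brakes on RAS and RAF, 0 of 7 passed the limit in either line, and the values ranged from -0.48 (RASAL2, a RAS GTPase-activating protein) to 0.41 (LZTR1) in SK-MEL-28. Of the direct ERK targets and ETS partners, SK-MEL-28 had 1 of 11 higher and 2 lower, and A375 had 0 of 11. These were the kinase MKNK2 (1.07, and 0.34 in A375) and the ETS factors ELK3 (-0.79, and -0.07 in A375) and ETS1 (-0.69, and -0.42 in A375). CCND1 was the sole gene of these lists that edgeR called for treatment over both lines.

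The genes whose levels over the 4 libraries were most like those of DUSP6 were SYT11, PTPN14 and LOXL3. Their distance, taken over log2(FPKM + 1) values centred on each gene's mean, was 0.131, 0.157 and 0.199 among 1159 candidates. SYT11 had 5.14 and 2.55 FPKM in SK-MEL-28 with siNC and siLINC00622, and 13.1 and 12.9 FPKM in A375. SYT11 and PTPN14 had the same order of the libraries as DUSP6, but they were picked for their likeness to it. LOXL3 did not have that order, with 33.8 and 35.8 FPKM in A375 with siNC and siLINC00622. These values are a description over 4 libraries only.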

How the data were processed

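RNA was taken from SK-MEL-28 and A375 cells transfected with siNC or siLINC00622, 1 library each, and poly(A)-selected libraries from a kit that does not mark strand were sequenced as paired-end reads. The submitters' processing notes name HISAT2, TopHat2, Bowtie2 and HISAT and the genome build hg19 without roles, and the counting tool and annotation were not given in the sources used here. The authors deposited 1 table of raw read counts per gene, with FPKM (counts scaled to a length for each gene and to depth) and CPM (counts scaled to sequencing depth) beside them. Library totals were taken from the deposited counts and CPM, and 4 columns of per-sample values (TPM) were not used.

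Within a line, the log2 ratio of siLINC00622 over siNC was computed from counts scaled by TMM (edgeR 4.0.16, R 4.3.3) with a prior count of 2, for genes with at least 10 counts in 1 library of the line. Its 95% interval is exact (Clopper-Pearson), treats reads as independent molecules and so covers counting error only, and no test was made. A fold limit of 1.5 was used for counts of genes. Over both lines, edgeR's quasi-likelihood test was fitted to genes with at least 10 counts in 2 libraries with line and treatment as terms, and p-values were adjusted over all 16310 genes by Benjamini-Hochberg at 0.05. The same line is the pairing of siNC with siLINC00622 libraries, as the labels give it, and it entered the fit as a block. With 1 library per condition, p-values rest on the spread between these libraries, not on that between replicate cultures. edgeR moderates that spread across genes, with a median of 5.49 prior degrees of freedom beside 1 residual degree of freedom. Much of the spread used for a gene was thus shared from other genes. The fit was tested on simulated counts with planted changes that were equal in both lines. A treatment effect that differs between the lines was not simulated.

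The 10 genes, the lists of relatives, ERK-induced genes, cascade members, brakes and effectors, and the cell type markers were chosen with earlier results of these data known. All 10 were named. From the other lists, up to 3 genes with the largest ratio in either line and at least 50 counts in a library were named, with any gene called. A gene of the cascade list is not reported here. BRAF, chosen after its values were seen, was added. Genes like DUSP6 had at least 50 counts in each library and were ranked by Euclidean distance, with a pseudocount of 1. Positions and 3' UTRs are from GENCODE 29 on GRCh38 and promoters from RefSeq on GRCh38.p14, matched by identifier or symbol, since the table holds no coordinates. Alternatives were other scalings, prior counts, filters and fold limits, DESeq2 1.42.0, FPKM, and a fit without the block.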

Additional observations from a re-analysis of the deposited data

Results flagged for a closer look

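For 4 of the 10 genes, and for DUSP9 among the other genes named by the rule, the ratio of siLINC00622 over siNC was on opposite sides of 0 in the lines, with both counting intervals apart from 0. Of all genes, 6.4% had this pattern, and further genes of the pathway lists, such as PHLDA2, PHLDA3 and ETV1 among the relatives, had it too. The intervals are narrow for genes with many reads, as most of the 10 are, and the share was not taken over genes of like depth. The log2 ratio in SK-MEL-28 and A375 was -0.31 and 0.32 for PHLDA1, -0.18 and 0.22 for SPRY2, -0.17 and 0.15 for SPRED1, and -0.10 and 0.18 for SPRED2. DUSP9 had the reverse order, 0.25 in SK-MEL-28 and -0.43 in A375. Each line has 1 library per treatment, so the difference between the lines was not tested.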

How the results depend on the processing

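With 1 library per condition, no library could be left out within a line, and low counts limit DUSP5 in SK-MEL-28 most. Other scalings moved the median of all genes by 0.014 or less on the log2 scale within a line. Library totals moved the differences between the lines by more, as given below. With a fold limit of 2, DUSP6 no longer passed in SK-MEL-28 (0 of the 10 lower), and the counts over all genes in SK-MEL-28 were 165 higher and 266 lower (704 and 1002 at 1.5-fold), and A375 had 154 and 134 (724 and 696 at 1.5-fold). With at least 50 counts SK-MEL-28 had 356 and 638 and A375 405 and 312, and with no filter on low counts SK-MEL-28 had 1081 higher and A375 1064 lower.

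For the treatment over both lines, edgeR called 14 genes higher and 24 lower of all genes. This became 1 and 0 with library totals, 36 and 49 with upper quartile scaling, 57 and 64 with no filter, and 144 and 159 with DESeq2. Without the block for the cell line, the pairing was lost and 0 genes were called higher and 0 lower, since the difference between the lines then counts as spread. None of the 10 genes was called for treatment under any of these settings. The effect of CCND1 was -1.05 with library totals (adjusted p = 0.0868 by edgeR) and -1.04 without the block (adjusted p = 1 by edgeR). LINC00622 was called in no edgeR setting, and DESeq2 gave no adjusted p for its treatment effect. For the difference between the lines, SPRED1 and SPRED2 among the 10 genes changed their call, with the values given above. Library totals and upper quartile scaling raised the fitted difference of all 10 genes, not of these alone. DUSP4, for example, went from -0.83 to -0.65 and -0.72. Over all genes, 5676 higher and 5553 lower became 6750 and 4612 with library totals, and 6408 and 4997 with upper quartile scaling. The cause of the changed calls was not tested beyond these settings.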

Other observations

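Between the lines, several ERK-induced genes outside the 10 differed by much more than the feedback genes did. EPHA2, an ephrin receptor, was higher in A375 by 6.66 on the log2 scale (SE 0.122, edgeR), with 1.07 FPKM in SK-MEL-28 and 113 FPKM in A375 with siNC. FOSL1, an AP-1 subunit, was higher by 2.78 (46.5 and 331 FPKM with siNC). MYC was lower in A375, at -3.49 (39.3 and 4.23 FPKM with siNC), and FOS was lower at -2.99. These genes were chosen after their values were seen.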
